A study of Mus musculus with 12 samples.

Results

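The insulin-like growth factor (IGF) and insulin gene group described here holds 10 of the 55401 genes in the count table. It has 1 ligand (Igf1), 2 receptors (Igf1r and Insr), 2 receptor substrates (Irs1 and Irs2) and 5 genes of the IGF binding protein family (Igfbp2, Igfbp3, Igfbp4, Igfbp5 and Igfbp7). The members were chosen by name, and all 10 passed the filter on low counts. Igf1 did so through its counts in adult NSC.

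RNA was sequenced from primary cultures of the subventricular zone, a neurogenic niche along the lateral ventricle, of CD1 mice. There were 4 libraries of each of 3 kinds of culture, which the labels describe as biological replicates from 4 independent litters. Postnatal OPC (oligodendrocyte precursor cells) came from pups aged 0 to 2 days: cells of primary neurospheres were dissociated and kept for 2 days as a monolayer with FGF and PDGF-AA (10 ng/mL of each). Adult NSC (neural stem cells) came from mice aged 2 months and were grown for 6 to 7 days as neurospheres with EGF at 20 ng/mL, FGF at 10 ng/mL and heparin at 2 µg/mL. Postnatal NSC came from pups aged 0 to 2 days and had the same neurosphere medium as adult NSC. All media were serum-free and held 2% B27, a supplement that contains insulin. No group carried a genetic change or a drug treatment. OPC therefore differ from both NSC groups in growth factors and culture form as well as in cell type, and these cannot be told apart. From adult NSC they also differ in the age of the mice, which cannot be told apart from the rest.

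IGF-1 and insulin bind related receptor tyrosine kinases, which phosphorylate the IRS adaptors and so switch on PI3K, AKT and mTOR as well as RAS and MAP kinase. The secreted binding proteins hold IGFs outside the cell, where they prolong their life and can block or deliver them, and proteases release the ligand again. In the brain this pathway is known for supporting growth and survival of neural progenitors, and IGF-1 promotes oligodendrocyte development and myelination.

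The libraries held 17226501 to 23651396 counts for postnatal OPC, 16756231 to 20064043 for adult NSC and 38928989 to 54801726 for postnatal NSC. Levels are in CPM (counts scaled to a library total of 1e6), scaled by the TMM method, and levels of different genes are compared only per kilobase (kb) of exon. The summed level of 9 OPC marker genes was 10181 to 15012 CPM in postnatal OPC and 5078 to 5398 CPM in adult NSC. In postnatal NSC it was 5938 to 6313 CPM. All 9 were higher in OPC than in adult NSC while 6 were higher in OPC than in postnatal NSC. Most of the adult NSC sum was Ptprz1, Olig1 and Olig2, which averaged 2920.7, 1508.1 and 622.2 CPM there. Pdgfra averaged 1433.1, 12.2 and 230.0 CPM in postnatal OPC, adult NSC and postnatal NSC, and Gpr17 973.2, 4.93 and 543.1 CPM. Sox10, Gpr17 and Olig1 did not pass in OPC against postnatal NSC, and those groups overlapped. Of 9 neural stem cell markers, 5 were higher and 3 lower in OPC than in adult NSC. Against postnatal NSC, 3 were higher and 5 lower. A pair of libraries stood apart. The mean log2 CPM of 16 genes of the G1/S phase was 4.62 in postnatal OPC 2 and 5.0 in postnatal NSC 3, against 6.09 to 6.86 in the other libraries. The Y-linked gene Ddx3y had -3.79 log2 CPM in adult NSC 1, -2.81 in postnatal NSC 2 and -3.79 in postnatal NSC 3, against 4.02 to 5.89 in the other libraries, and no OPC library was low. Counts of calls are given with and without both libraries low in G1/S genes, which left 54.4%, 58.0% and 55.6% of all genes called in OPC against postnatal NSC, adult against postnatal NSC and OPC against adult NSC.

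Per length, Igfbp2 and Igfbp3 stood far above the receptors in each group, and Igf1 stood below them. In postnatal OPC the order was led by Igfbp2 at 99.3 ± 52.8 CPM per kb and Igfbp3 at 58.5 ± 32.4 CPM per kb. Their spreads between libraries overlap (SD, n = 4). Yet Igfbp2 stood above Igfbp3 in every OPC library, at 58.0% to 60.2% against 28.3% to 35.9% of the summed binding proteins per length. The next were Irs2 at 7.84 ± 2.20, Igfbp5 at 5.66 ± 0.734, Insr at 5.55 ± 0.160, Igfbp4 at 4.29 ± 3.25, Igf1r at 3.83 ± 0.378 and Irs1 at 2.89 ± 0.816 CPM per kb, in which neighbours did not differ beyond their spread. Igfbp7 at 0.468 ± 0.304 and Igf1 at 0.0137 ± 0.0089 CPM per kb came last. The order of the genes after Igfbp3 was not compared library by library. In adult NSC Igfbp3 led at 379.1 ± 17.9 CPM per kb, above Igfbp2 at 323.4 ± 9.95 CPM per kb by more than their spreads. In postnatal NSC Igfbp2 led at 303.8 ± 118.8 CPM per kb, before Igfbp3 at 106.9 ± 79.8 CPM per kb, and their spreads touched. Igfbp2 was again above Igfbp3 in every postnatal NSC library, at 61.7% to 72.9% against 7.56% to 31.9% of the sum. Irs2 and Igfbp5 came next there, at 31.9 ± 16.3 and 31.1 ± 17.9 CPM per kb, and did not differ beyond their spread.

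**Figure D1:**
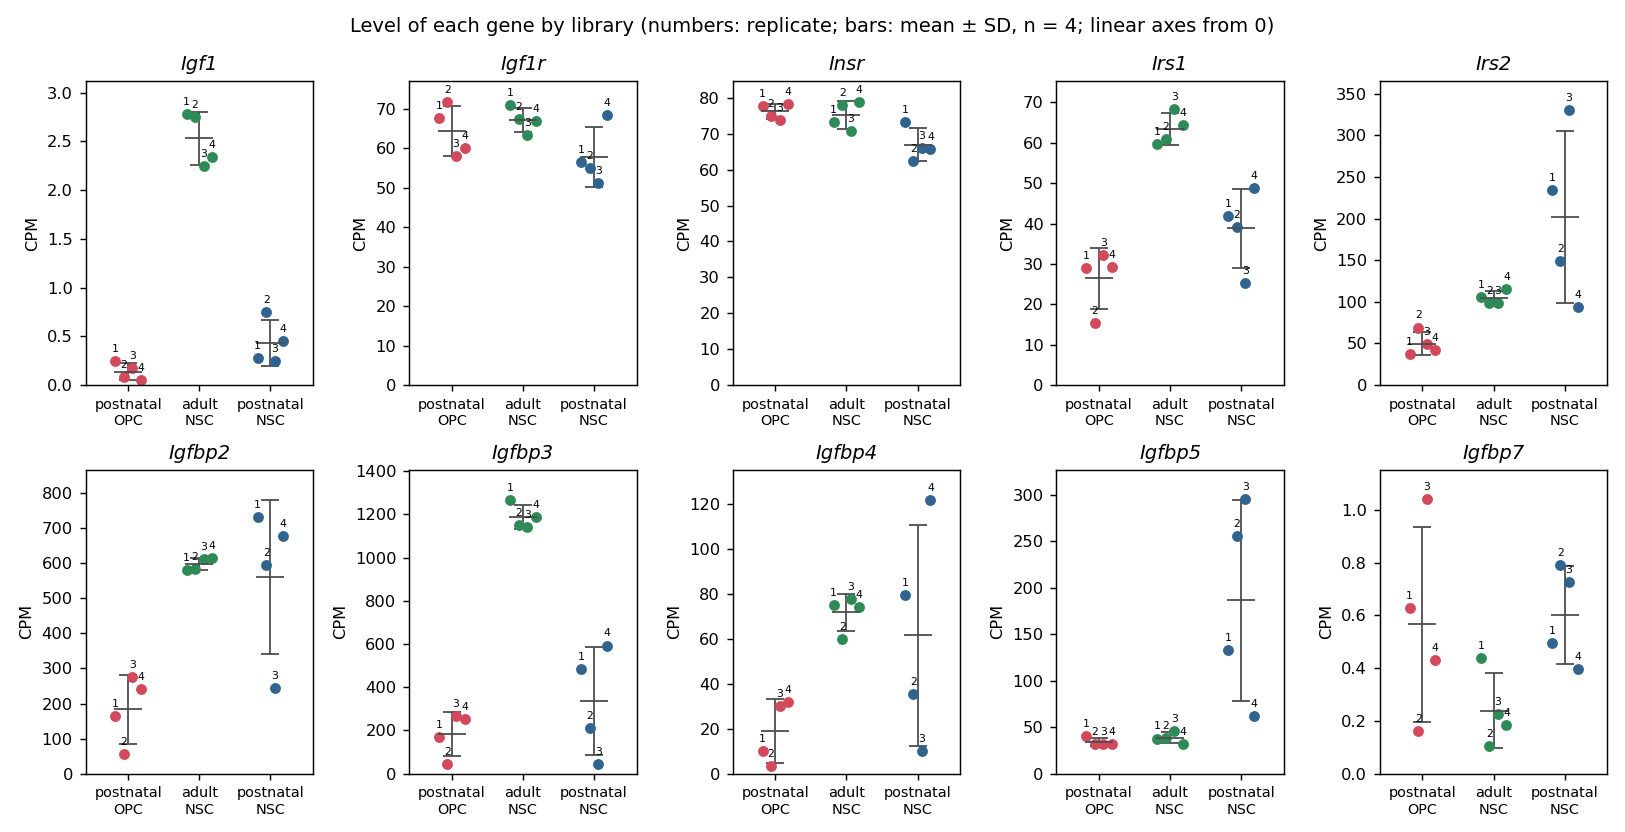
Level of each member in CPM (linear axes from 0) in postnatal OPC, adult NSC and postnatal NSC, with 1 numbered point per library and lines at the mean ± SD (n = 4). Group means lie between 57.8 and 67.2 CPM for Igf1r and between 66.9 and 76.2 CPM for Insr, Igf1 is highest in adult NSC, Igfbp5 is highest in postnatal NSC, and postnatal NSC libraries spread widely for Igfbp3 (47.0 to 593.0 CPM).

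Igf1 (ENSMUSG00000020053.18, chr10:87858265-87937042 on GRCm38, plus strand), the growth factor itself, was scarce in every culture and least scarce in adult NSC. It had 0.242, 0.0815, 0.173 and 0.0480 CPM in postnatal OPC 1 to 4, from 5, 2, 3 and 1 counts. Adult NSC 1 to 4 had 2.78, 2.75, 2.25 and 2.34 CPM (51, 53, 40 and 38 counts). Postnatal NSC 1 to 4 had 0.273, 0.754, 0.250 and 0.447 CPM (11, 43, 10 and 18 counts). Thus no library of one group overlapped any of another, with adult NSC on top and OPC at the bottom. Igf1 passed the filter on low counts through adult NSC, the group where it is high, so its p-values are not separate support for this order. It was 5.73-fold higher in adult than in postnatal NSC (log2 fold change 2.52 ± 0.38 SE, edgeR adjusted p = 0.000267). OPC had an 18.4-fold lower level than adult NSC (log2 fold change -4.20 ± 0.47, edgeR adjusted p = 1.9e-05). Against postnatal NSC the OPC level was 3.22-fold lower (log2 fold change -1.69 ± 0.49, edgeR adjusted p = 0.0146), a call that was lost with the level of Ddx3y as a covariate (-1.47, edgeR adjusted p = 0.0553) and that rests on 11 counts in the 4 OPC libraries. In bulk RNA, fewer cells that express a gene and less of its RNA per cell cannot be told apart.

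Microglia and vascular cells are known sources of IGF-1 in the brain, so their markers are given beside it. The summed level of 10 microglial genes was 1.14 to 2.02 CPM in postnatal OPC, 0.520 to 0.802 CPM in adult NSC and 0.250 to 0.571 CPM in postnatal NSC. The microglial receptor gene Cx3cr1 had 0 counts in all 12 libraries. Only 1 of the 10 genes (P2ry12) was abundant enough to test, and it was higher in OPC than in either NSC group. P2ry12 passed the filter through its OPC counts (26 to 41 per library), so these calls are not separate support. The summed level of 8 endothelial genes was 3.57 to 5.54 CPM in postnatal OPC and 15.4 to 16.9 CPM in adult NSC. In postnatal NSC it was 8.02 to 18.1 CPM. Most of the adult NSC sum was Flt1, which averaged 0.296, 12.1 and 7.24 CPM in postnatal OPC, adult NSC and postnatal NSC. Of the 3 tested, 1 (Flt1) was lower and 1 (Vwf) higher in OPC than in adult NSC. Flt1 was also lower in OPC than in postnatal NSC, and Vwf lower in adult than in postnatal NSC. Cdh5, Cldn5 and Emcn had no counts in OPC, and 1, 7 and 15 counts in all in adult NSC. The part of endothelial cells in the Igf1 levels was not tested. The other ligands were close to absent: Igf2 had 1, 1 and 10 counts in all in postnatal OPC, adult NSC and postnatal NSC, and shares exonic sequence with another gene of its strand, so it is uncertain. Ins1 had no counts.

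Both receptors were present in every culture, with group means from 57.8 to 67.2 CPM for Igf1r and from 66.9 to 76.2 CPM for Insr. Igf1r (ENSMUSG00000005533.10, chr7:67952827-68233668, plus strand), the kinase that binds IGF-1 with high affinity, had 67.6, 71.6, 58.1 and 60.0 CPM in postnatal OPC, 70.9, 67.4, 63.4 and 66.9 CPM in adult NSC and 56.5, 54.9, 51.1 and 68.5 CPM in postnatal NSC. The groups overlapped. Its log2 fold change was 0.16 ± 0.10 in OPC against postnatal NSC (edgeR adjusted p = 0.226), 0.22 ± 0.10 in adult against postnatal NSC (edgeR adjusted p = 0.0864) and -0.06 ± 0.10 in OPC against adult NSC (edgeR adjusted p = 0.636). Without postnatal NSC 4, its highest postnatal NSC library, the difference between adult and postnatal NSC passed the test (0.27, edgeR adjusted p = 0.0274). The type 2 receptor Igf2r, which clears IGF-2 and has no kinase, is described with the pathway genes.

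Insr (ENSMUSG00000005534.10, chr8:3122061-3279617, minus strand), the insulin receptor, had 77.7, 75.0, 73.8 and 78.4 CPM in postnatal OPC, 73.2, 78.0, 70.8 and 78.8 CPM in adult NSC and 73.4, 62.4, 66 and 65.8 CPM in postnatal NSC. The lowest OPC library lay just above the highest postnatal NSC library, while OPC and adult NSC overlapped. Insr was 1.14-fold higher in OPC than in postnatal NSC (log2 fold change 0.19 ± 0.07, edgeR adjusted p = 0.0456). That call was lost in 19 of 20 edgeR alternatives, with adjusted p between 0.0312 and 0.261 over the 20, so it stands on the edge of the threshold. DESeq2 called 1 of the 10 members higher and 5 lower in OPC against postnatal NSC. The differences were 0.17 ± 0.07 for adult against postnatal NSC (edgeR adjusted p = 0.0617), or 0.18 without postnatal NSC 1 (edgeR adjusted p = 0.0441), and 0.02 ± 0.07 for OPC against adult NSC (edgeR adjusted p = 0.834).

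The receptor substrates split by group. Irs1 (ENSMUSG00000055980.2, chr1:82233101-82291416, minus strand), an adaptor that links both receptors to PI3K, had 28.9, 15.4, 32.1 and 29.2 CPM in postnatal OPC, 59.6, 60.9, 68.4 and 64.5 CPM in adult NSC and 41.9, 39.2, 25.3 and 48.9 CPM in postnatal NSC. Adult NSC stood above both other groups without overlap. Irs1 was 1.63-fold higher in adult than in postnatal NSC (log2 fold change 0.71 ± 0.22, edgeR adjusted p = 0.0173) and 2.41-fold lower in OPC than in adult NSC (-1.27 ± 0.22, edgeR adjusted p = 0.000559). Between OPC and postnatal NSC the difference of -0.56 ± 0.22 did not pass (edgeR adjusted p = 0.0565). It passed in 7 of 20 edgeR alternatives and by DESeq2 (-0.55, adjusted p = 0.0365). The 7 were upper-quartile scaling (-0.59, edgeR adjusted p = 0.0421), no filter on low counts (-0.60, edgeR adjusted p = 0.0441), equal depth (-0.62, edgeR adjusted p = 0.0384), the Ddx3y covariate (-0.71, edgeR adjusted p = 0.0353) and the fits without postnatal NSC 3 (-0.72, edgeR adjusted p = 0.0100), without postnatal OPC 3 (-0.66, edgeR adjusted p = 0.0459) and without both libraries low in G1/S genes (-0.53, edgeR adjusted p = 0.000833). Irs1 overlaps Gm9747 on the other strand over 2822 bases, and Gm9747 had 1 count in all libraries.

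Irs2 (ENSMUSG00000038894.7, chr8:10984681-11008458, minus strand), the second adaptor, ran in another order. It had 37.5, 69.1, 49.2 and 42.4 CPM in postnatal OPC, 106.1, 98.6, 98.1 and 115.0 CPM in adult NSC and 234.0, 149.2, 329.8 and 93.7 CPM in postnatal NSC. OPC lay below both NSC groups without overlap, and adult NSC lay inside the wide range of postnatal NSC. Irs2 was 4.07-fold lower in OPC than in postnatal NSC (log2 fold change -2.02 ± 0.32, edgeR adjusted p = 0.000347) and 2.11-fold lower in OPC than in adult NSC (-1.07 ± 0.31, edgeR adjusted p = 0.0127). The 1.93-fold lower level in adult than in postnatal NSC (-0.95 ± 0.31, edgeR adjusted p = 0.0220) kept its call in 15 of 20 edgeR alternatives. Among the other 5 were the fits without postnatal NSC 3 (-0.61, edgeR adjusted p = 0.0749), without adult NSC 2 (-0.92, edgeR adjusted p = 0.0538), without adult NSC 3 (-0.91, edgeR adjusted p = 0.0545) and with the Ddx3y covariate (-0.85, edgeR adjusted p = 0.0537). In postnatal NSC 3 Irs2 was at its highest of the 12 libraries and Irs1 at its lowest of that group. Irs2 overlaps 9530052E02Rik on the other strand over 162 bases.

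The promoters of 4 binding protein genes and of Irs2 are shown because Igfbp2, Igfbp3 and Igfbp4 were each at the lowest of their group in postnatal OPC 2 and postnatal NSC 3, while Igfbp5 and Irs2 were at the highest of their group in postnatal NSC 3. Each sequence is the 250 bases before the gene's RefSeq start on GRCm38.p6, 5′ to 3′ on the gene's strand, in lower case with motif matches in capitals. They lie at chr1:72824230-72824479 (plus strand, Igfbp2, the first of 2 listed starts), chr11:7213924-7214173 (minus strand, Igfbp3), chr11:99040994-99041243 (plus strand, Igfbp4), chr1:72874866-72875115 (minus strand, Igfbp5) and chr8:11008930-11009179 (minus strand, Irs2, upstream of the GENCODE start).
Igfbp2: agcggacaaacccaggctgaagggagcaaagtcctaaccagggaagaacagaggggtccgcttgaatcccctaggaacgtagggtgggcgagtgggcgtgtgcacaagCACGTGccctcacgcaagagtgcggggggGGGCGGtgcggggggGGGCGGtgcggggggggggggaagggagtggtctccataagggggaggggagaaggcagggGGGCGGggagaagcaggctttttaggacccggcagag
Igfbp3: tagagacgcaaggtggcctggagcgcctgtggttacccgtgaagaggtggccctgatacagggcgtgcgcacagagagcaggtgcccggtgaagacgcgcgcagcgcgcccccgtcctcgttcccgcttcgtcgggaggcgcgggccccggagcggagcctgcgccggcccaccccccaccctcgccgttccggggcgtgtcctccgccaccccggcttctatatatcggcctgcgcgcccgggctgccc
Igfbp4: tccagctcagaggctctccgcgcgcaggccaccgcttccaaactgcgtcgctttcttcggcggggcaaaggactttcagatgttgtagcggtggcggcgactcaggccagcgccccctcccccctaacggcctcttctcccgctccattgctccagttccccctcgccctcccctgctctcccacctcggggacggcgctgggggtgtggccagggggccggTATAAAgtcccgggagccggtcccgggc
Igfbp5: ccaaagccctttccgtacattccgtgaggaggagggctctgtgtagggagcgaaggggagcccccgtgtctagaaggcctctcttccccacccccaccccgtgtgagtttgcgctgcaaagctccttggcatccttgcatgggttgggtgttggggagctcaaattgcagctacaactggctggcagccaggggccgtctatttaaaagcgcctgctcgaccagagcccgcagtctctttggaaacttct
Irs2: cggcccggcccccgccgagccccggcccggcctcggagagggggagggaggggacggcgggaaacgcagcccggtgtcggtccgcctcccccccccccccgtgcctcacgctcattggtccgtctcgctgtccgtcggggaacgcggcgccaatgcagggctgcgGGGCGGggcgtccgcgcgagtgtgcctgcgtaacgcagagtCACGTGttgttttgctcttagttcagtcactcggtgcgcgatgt
The motifs searched on both strands were the TATA box (TATAAA), the GC box (GGGCGG), an E-box (CACGTG), a FOXO site (GTAAACA), a cyclic AMP response element (TGACGTCA) and an AP-1 site (TGANTCA). Among 32817 promoters of this length, 12.4%, 32.7%, 6.02%, 3.16%, 1.55% and 6.75% held them, in that order. The Igfbp2 promoter shown held 3 GC boxes, the nearest at bases -37 to -32 from the start, and an E-box at -142 to -137. The other listed Igfbp2 start, not shown, had an AP-1 site at -39 to -33. Irs2 held a GC box at -85 to -80 and an E-box at -44 to -39, and Igfbp4 a TATA box at -28 to -23. None of the 6 motifs was found in these exact letters in the 250 bases of Igfbp3 or Igfbp5, and looser forms, such as other AT-rich TATA elements, were not searched. GC content was 67.2% for Igfbp2, 73.2% for Igfbp3, 69.2% for Igfbp4, 58.8% for Igfbp5 and 72.8% for Irs2, against a median of 52.4% over all promoters. Of the 10 members 9 had a promoter in the table, and Insr had none. A match describes letters and is not evidence of binding.

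Igfbp2 (ENSMUSG00000039323.18), a binding protein abundant in the developing brain, was lowest in OPC. It had 163.0, 55.1, 274.6 and 241.2 CPM in postnatal OPC, 578.9, 584.0, 611.9 and 614.2 CPM in adult NSC and 730.7, 593.4, 243.1 and 677.3 CPM in postnatal NSC. OPC lay below adult NSC without overlap, but postnatal NSC 3 fell among the OPC libraries. Igfbp2 was 3.06-fold lower in OPC than in postnatal NSC (log2 fold change -1.61 ± 0.42, edgeR adjusted p = 0.00771) and 3.26-fold lower in OPC than in adult NSC (-1.70 ± 0.42, edgeR adjusted p = 0.00492). Adult and postnatal NSC differed by 0.09 ± 0.41 (edgeR adjusted p = 0.864), and by -0.16 without postnatal NSC 3 (edgeR adjusted p = 0.736). Without both libraries low in G1/S genes the OPC values were -1.56 against postnatal NSC (edgeR adjusted p = 1.52e-05) and -1.39 against adult NSC (edgeR adjusted p = 1.27e-05).

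Igfbp3 (ENSMUSG00000020427.11), the main carrier of IGFs in blood, was the most abundant member in adult NSC. It had 169.8, 44.7, 266.5 and 251.2 CPM in postnatal OPC, 1265.4, 1150.6, 1142.5 and 1187.3 CPM in adult NSC and 486.0, 212.8, 47.0 and 593.0 CPM in postnatal NSC. Every adult NSC library stood above every library of the other groups, and those overlapped each other. Within postnatal NSC the highest library held 12.6 times the level of the lowest. Igfbp3 was 3.54-fold higher in adult than in postnatal NSC (log2 fold change 1.83 ± 0.64, edgeR adjusted p = 0.0299), and 6.48-fold lower in OPC than in adult NSC (-2.70 ± 0.66, edgeR adjusted p = 0.00472). The adult call was lost without any 1 of the adult libraries (edgeR adjusted p = 0.0502 to 0.0550) and without postnatal NSC 2 (1.62, edgeR adjusted p = 0.0854), but held without both libraries low in G1/S genes (1.45, edgeR adjusted p = 0.00113). OPC and postnatal NSC differed by -0.87 ± 0.63 (edgeR adjusted p = 0.275), which passed without postnatal NSC 3 (-1.24, edgeR adjusted p = 0.0481) and without both low-G1/S libraries (-0.92, edgeR adjusted p = 0.0201).

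Igfbp4 (ENSMUSG00000017493.12), a binding protein known to inhibit IGF action until the protease PAPP-A cleaves it, had 10.2, 3.34, 30.1 and 32.0 CPM in postnatal OPC, 75.0, 59.9, 77.8 and 74.2 CPM in adult NSC and 79.4, 35.5, 10.0 and 121.6 CPM in postnatal NSC. Adult libraries were close to each other, whereas the highest library held 9.58 times the lowest in OPC and 12.1 times the lowest in postnatal NSC. It was 3.81-fold lower in OPC than in adult NSC (log2 fold change -1.93 ± 0.71, edgeR adjusted p = 0.0376). This call was lost without any 1 of the adult libraries (edgeR adjusted p = 0.0541 to 0.0685), without postnatal OPC 1 (-1.71, edgeR adjusted p = 0.0969) and without postnatal OPC 2 (-1.57, edgeR adjusted p = 0.0667). The difference between OPC and postnatal NSC was of like size, -1.71 ± 0.70, and did not pass (edgeR adjusted p = 0.0646). It passed in 4 of 20 edgeR alternatives, which were the fits without postnatal NSC 3 (-2.07, edgeR adjusted p = 0.0131), without both low-G1/S libraries (-1.72, edgeR adjusted p = 0.00627), with no filter on low counts (-1.75, edgeR adjusted p = 0.0456) and with the Ddx3y covariate (-2.07, edgeR adjusted p = 0.0373). Adult and postnatal NSC differed by 0.22 ± 0.68 (edgeR adjusted p = 0.798), with a sign that turned without postnatal NSC 2 (-0.01) or postnatal NSC 3 (-0.14).

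Igfbp5 (ENSMUSG00000026185.8), a binding protein that also attaches to the extracellular matrix, was highest in postnatal NSC. It had 40.6, 31.6, 32.1 and 31.8 CPM in postnatal OPC, 37.9, 38.6, 46.0 and 31.5 CPM in adult NSC and 133.1, 255.4, 295.4 and 62.4 CPM in postnatal NSC. All 4 postnatal NSC libraries lay above all 8 others, and OPC and adult NSC overlapped. Igfbp5 was 5.49-fold lower in OPC than in postnatal NSC (log2 fold change -2.46 ± 0.37, edgeR adjusted p = 0.000262) and 4.84-fold lower in adult than in postnatal NSC (-2.28 ± 0.37, edgeR adjusted p = 0.000411). OPC and adult NSC differed by -0.18 ± 0.36 (edgeR adjusted p = 0.702). Both calls were kept in every alternative run. The largest move came with the Ddx3y covariate, under which OPC against postnatal NSC was -1.87 (edgeR adjusted p = 0.00236). The libraries low in Ddx3y were postnatal NSC 2 and 3, with 255.4 and 295.4 CPM of Igfbp5, and adult NSC 1, with 37.9 CPM. No OPC library was low in Ddx3y, and its part in the Igfbp5 levels was not tested.

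Markers of pericytes and fibroblasts, mesenchymal cells that are also known to express Igfbp5, are given beside it. The summed level of 10 such genes was 3.92 to 9.62 CPM in postnatal OPC, 17.3 to 44.4 CPM in adult NSC and 45.2 to 71.4 CPM in postnatal NSC. Most of the postnatal NSC sum was Acta2, at 56.2, 42.3, 55.8 and 32.5 CPM in postnatal NSC 1 to 4. Of the 4 tested, 3 (Col1a1, Col1a2 and Acta2) were lower in OPC than in postnatal NSC and 1 (Col1a1) was lower in adult than in postnatal NSC. The other, Pdgfrb, did not pass in OPC against postnatal NSC (0.65 ± 0.89, edgeR adjusted p = 0.575). In OPC against adult NSC Pdgfrb was higher (3.32 ± 1.11, edgeR adjusted p = 0.025), while Col1a1, Col1a2 and Acta2 were lower. Of the 265 OPC counts of Pdgfrb, 219 came from postnatal OPC 2 (8.93 CPM, against 0.432 to 1.16 CPM in the other OPC libraries). OPC and adult NSC overlapped for Pdgfrb. Dcn and Lum had no counts in OPC, Abcc9 and Lum none in adult NSC and Kcnj8 none in postnatal NSC. Within postnatal NSC 1 to 4 the summed level was 71.4, 58.0, 65.3 and 45.2 CPM, beside 133.1, 255.4, 295.4 and 62.4 CPM of Igfbp5. Postnatal NSC 4 was lowest in both, but postnatal NSC 1, highest in the markers, had less Igfbp5 than postnatal NSC 2 and 3. Their part in the result was not tested.

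Igfbp7 (ENSMUSG00000036256.13, chr5:77349240-77408041, minus strand), a family member with weak affinity for IGFs, was near the detection limit. Postnatal OPC had 13, 4, 18 and 9 counts (0.629, 0.163, 1.04 and 0.432 CPM), adult NSC had 8, 2, 4 and 3 counts (0.437, 0.104, 0.225 and 0.185 CPM), and postnatal NSC had 20, 45, 29 and 16 counts (0.497, 0.790, 0.726 and 0.398 CPM). Neighbouring groups overlapped. No difference passed: the log2 fold changes were -0.14 ± 0.48 in OPC against postnatal NSC (edgeR adjusted p = 0.838), -1.33 ± 0.54 in adult against postnatal NSC (edgeR adjusted p = 0.0552) and 1.20 ± 0.57 in OPC against adult NSC (edgeR adjusted p = 0.0991). The difference between adult and postnatal NSC passed in 8 alternatives, which included leaving out adult NSC 1 (-1.80, edgeR adjusted p = 0.0335), postnatal NSC 4 (-1.53, edgeR adjusted p = 0.0382), postnatal OPC 2 (-1.37, edgeR adjusted p = 0.0235) or postnatal OPC 3 (-1.33, edgeR adjusted p = 0.0430). That between OPC and adult NSC passed in 3 of 19 edgeR alternatives, without postnatal OPC 2 (1.53, edgeR adjusted p = 0.0261), without both libraries low in G1/S genes (1.53, edgeR adjusted p = 0.0246) and with the Ddx3y covariate (1.55, edgeR adjusted p = 0.0329). Igfbp7 shares 85 bases with Polr2b on the other strand, which had 2727 to 7435 counts per library, so that its few counts are uncertain.

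Igfbp2 and Igfbp5 are neighbours on chromosome 1 (GRCm38), tail to tail with 5457 bases between them, and Igfbp1 and Igfbp3 lie 3539 bases apart on chromosome 11. Neighbours did not share a level. In postnatal NSC 3 Igfbp2 was at its lowest of the group and Igfbp5 at its highest, and Igfbp1 had no counts while Igfbp3 was among the most abundant members in every group. Igfbp2 spans bases 72824503 to 72852474 on the plus strand and Igfbp5 bases 72857932 to 72874884 on the minus strand. Igfbp3 spans bases 7206086 to 7213923 on the minus strand of chromosome 11 and Igfbp4 bases 99041244 to 99054392 on its plus strand.

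Summed per length, the binding proteins Igfbp1 to Igfbp7 reached 152.3, 50.4, 246.8 and 223.8 CPM per kb in postnatal OPC, 741.4, 703.9, 721.8 and 734.3 CPM per kb in adult NSC and 591.6, 440.6, 198.7 and 594.4 CPM per kb in postnatal NSC. Adult NSC stood above both other groups without overlap, while OPC and postnatal NSC overlapped through postnatal NSC 3. The make-up of the sum differed too. Igfbp2 gave 58.9% ± 0.998 of it in OPC, 44.6% ± 1.60 in adult NSC and 66.9% ± 4.61 in postnatal NSC (SD, n = 4 each). Igfbp3 gave 33.6% ± 3.57 in OPC, 52.2% ± 1.67 in adult NSC and 20.3% ± 10.9 in postnatal NSC. Igfbp5 gave 4.85% ± 3.85 in OPC, 0.885% ± 0.144 in adult NSC and 9.97% ± 10.4 in postnatal NSC, where single libraries ranged from 1.75% to 24.8%. In OPC, the share of Igfbp2 stayed between 58.0% and 60.2% although the sum varied between 50.4 and 246.8 CPM per kb. These sums and shares are descriptions, with no test.

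**Figure D2:**
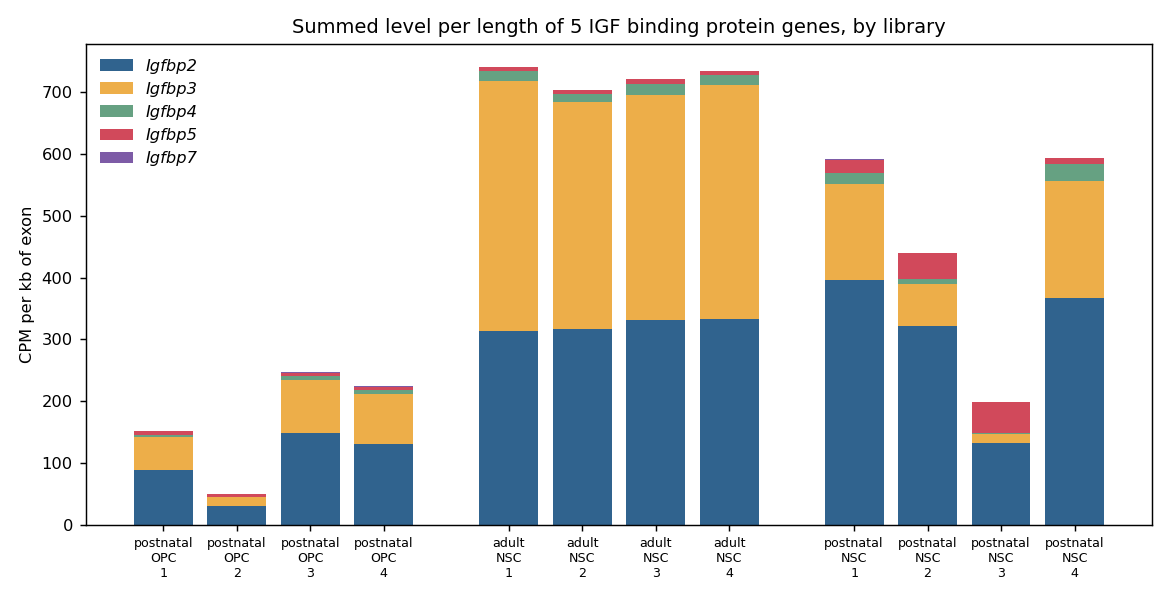
Summed level of Igfbp2, Igfbp3, Igfbp4, Igfbp5 and Igfbp7 in CPM per kb of exon for each of the 12 libraries, 1 stacked bar per library, in the order postnatal OPC, adult NSC and postnatal NSC. Adult NSC bars stand at 703.9 to 741.4 with Igfbp3 as the largest segment, and postnatal NSC 3 and postnatal OPC 2 have the shortest bar of their group.

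Set side by side, 5 of the 10 members were called in OPC against postnatal NSC, 1 higher (Insr) and 4 lower (Igf1, Irs2, Igfbp2 and Igfbp5), where 45.1% of all 16135 genes tested were called, 22.4% higher and 22.7% lower. The median log2 fold change was -1.24 over the members and -0.008 over all genes tested. The groups did not overlap for 4 members, against 34.9% of all genes. In adult against postnatal NSC 3 members were higher (Igf1, Irs1 and Igfbp3) and 2 lower (Irs2 and Igfbp5), where 53.1% of all genes tested were called, 25.2% higher and 27.9% lower. The medians were 0.20 over the members and -0.025 over all genes, and the groups did not overlap for 4 members, against 53.2% of all genes. In OPC against adult NSC 6 members were lower (Igf1, Irs1, Irs2, Igfbp2, Igfbp3 and Igfbp4) and 0 higher by edgeR, where 51.0% of all genes tested were called, 26.3% higher and 24.7% lower. DESeq2 also called 6 lower and 0 higher, and 0 members were higher at an unadjusted p under 0.05. Igfbp7, at 1.20 ± 0.57, did not pass. The medians there were -1.17 over the members and 0.006 over all genes, and the groups did not overlap for 6 members, against 56.6% of all genes. The shares called, 50.0%, 50.0% and 60.0%, were near those of all genes, and they count Igf1, which entered the test through its adult NSC counts. The 3 comparisons share their libraries and are not independent of each other.

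**Figure D3:**
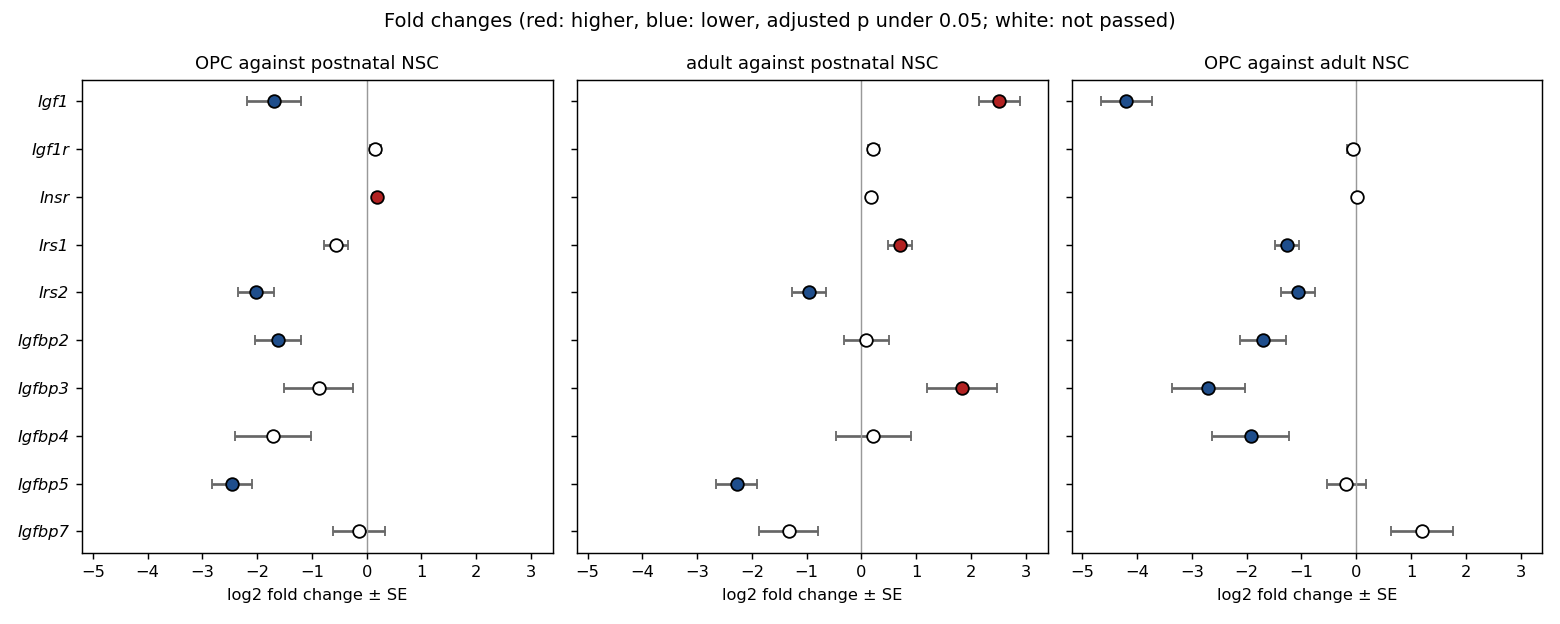
Log2 fold change ± SE of the 10 members in OPC against postnatal NSC, adult against postnatal NSC and OPC against adult NSC (edgeR, 4 libraries per group). Red points were higher and blue points lower at an adjusted p under 0.05, and white points did not pass. Igfbp5 lies at -2.46 and -2.28 against postnatal NSC and at -0.18 between OPC and adult NSC.

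The libraries low in G1/S genes also stood at the end of their groups for several members. Postnatal OPC 2 had the lowest Igfbp2, Igfbp3, Igfbp4, Igfbp5, Igfbp7 and Irs1 of the OPC libraries and the highest Irs2 and Igf1r. Postnatal NSC 3 had the lowest Igfbp2, Igfbp3, Igfbp4, Irs1, Igf1 and Igf1r of the postnatal NSC libraries and the highest Irs2 and Igfbp5. They thus stood at the same end of their groups for Igfbp2, Igfbp3, Igfbp4, Irs1 and Irs2 and at opposite ends for Igf1r. For Igfbp5, postnatal OPC 2 at 31.6 CPM was level with postnatal OPC 4 and 3 at 31.8 and 32.1 CPM. How often these libraries stood at an end of their group over all genes was not counted. Without both, edgeR called 7 members lower and 0 higher in OPC against postnatal NSC (1 higher at an unadjusted p under 0.05), since Irs1, Igfbp3 and Igfbp4 joined and Insr was lost (0.18, edgeR adjusted p = 0.0562). Adult against postnatal NSC then had 3 higher and 3 lower, and OPC against adult NSC had 1 higher (Igfbp7, 1.53, edgeR adjusted p = 0.0246) and 6 lower. Both libraries low in G1/S genes also stood apart in cell type markers. Gpr17 had 2775.7 CPM in postnatal OPC 2, against 319.8 to 449.5 CPM in the other OPC libraries. It had 1046.1 CPM in postnatal NSC 3, against 134.0 to 689.6 CPM in the rest of its group. Hes5 had 873.2 CPM in postnatal NSC 3, against 18.8 to 122.5 CPM. Olig1 was highest of its group in postnatal OPC 2 (2695.1 CPM) and lowest in postnatal NSC 3 (1104.6 CPM). The parts of cell cycle state and cell make-up in the members' levels were not tested and cannot be told apart.

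**Figure D4:**
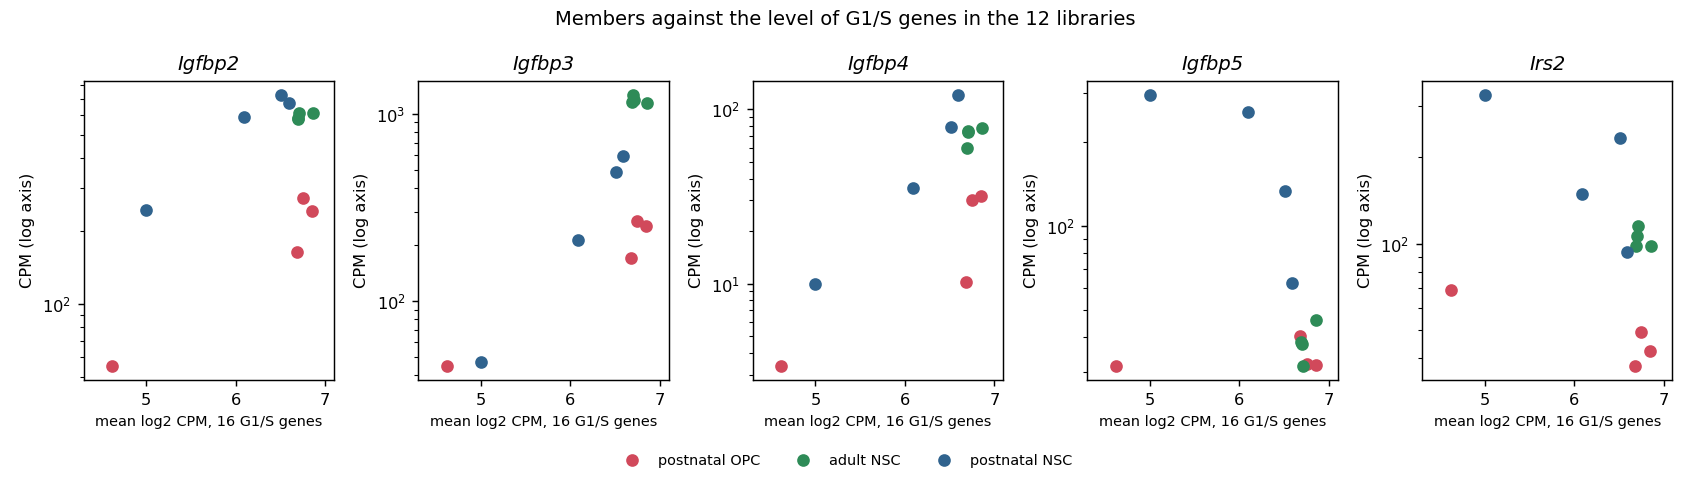
Level of Igfbp2, Igfbp3, Igfbp4, Igfbp5 and Irs2 in CPM (log axes) against the mean log2 CPM of 16 G1/S genes, 1 point per library, for postnatal OPC, adult NSC and postnatal NSC. The leftmost points are postnatal OPC 2 at 4.62 and postnatal NSC 3 at 5.0, which are low for Igfbp2, Igfbp3 and Igfbp4.

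Around the members, 68 other genes of the IGF and insulin pathway were listed by role, of which 56 were abundant enough to test. In OPC against postnatal NSC 14 were higher, 20 lower and 22 not called (60.7% called; median log2 fold change -0.16). Adult against postnatal NSC had 10 higher, 14 lower and 32 not called (42.9% called; median -0.03). OPC against adult NSC had 13 higher, 16 lower and 27 not called (51.8% called; median -0.08). The shares over all genes were 45.1%, 53.1% and 51.0%. Without both libraries low in G1/S genes, 55 of these genes had a value, and edgeR called 17 higher and 23 lower in OPC against postnatal NSC, 13 higher and 15 lower in adult against postnatal NSC, and 17 higher and 18 lower in OPC against adult NSC.

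Among the other receptors and binding factors, Igf2r had 35.9, 43.6, 46.7 and 40.4 CPM in postnatal OPC, 110.7, 119.0, 105.9 and 122.7 CPM in adult NSC and 82.2, 66.1, 59.7 and 65.7 CPM in postnatal NSC. The 3 groups did not overlap. Igf2r was lower in OPC than in adult NSC (log2 fold change -1.46 ± 0.11, edgeR adjusted p = 9.26e-07), lower in OPC than in postnatal NSC (-0.72 ± 0.11, edgeR adjusted p = 0.000282) and higher in adult than in postnatal NSC (0.74 ± 0.11, edgeR adjusted p = 0.000213). The protease gene Pappa was not tested, at a mean of 0.145 CPM in postnatal OPC, 0.187 CPM in adult NSC and 0.415 CPM in postnatal NSC. Stc1, which encodes an inhibitor of PAPP-A, had 0.726, 0.204, 1.27 and 0.961 CPM in postnatal OPC, 21.6, 21.7, 23.1 and 19.2 CPM in adult NSC and 4.47, 2.42, 1.40 and 6.41 CPM in postnatal NSC. Its order, adult NSC above postnatal NSC above OPC, was that of Igf1. It was higher in adult than in postnatal NSC (2.54 ± 0.44, edgeR adjusted p = 0.000593) and lower in OPC than in adult NSC (-4.79 ± 0.52, edgeR adjusted p = 1.38e-05). Htra1, a secreted protease that cleaves IGF binding proteins, was lower in OPC than in postnatal NSC (-1.63 ± 0.20, edgeR adjusted p = 5.22e-05) and than in adult NSC (-1.62 ± 0.20, edgeR adjusted p = 3.29e-05), with means of 20.6, 63.3 and 63.6 CPM in postnatal OPC, adult NSC and postnatal NSC.

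Of 12 adaptor genes, 6 were higher and 2 lower in OPC than in postnatal NSC, 3 higher and 4 lower in adult than in postnatal NSC, and 4 higher and 1 lower in OPC than in adult NSC. Without both libraries low in G1/S genes these counts were 6 and 2, 4 and 4, and 5 and 1, over 11 genes. Shc1, which couples the receptors to RAS, averaged 11.7 CPM in postnatal OPC, 29.8 CPM in adult NSC and 36.3 CPM in postnatal NSC and was lower in OPC than in postnatal NSC (-1.63 ± 0.10, edgeR adjusted p = 9.04e-07). Sos1, the RAS exchange factor, was higher in OPC than in postnatal NSC (0.62 ± 0.14, edgeR adjusted p = 0.00326). In adult against postnatal NSC the adaptor Crk was higher (0.74 ± 0.13, edgeR adjusted p = 0.000729) and the docking protein gene Gab1 lower (-0.84 ± 0.11, edgeR adjusted p = 9.24e-05), and the adaptor Sh2b2 was higher in OPC than in adult NSC (0.81 ± 0.19, edgeR adjusted p = 0.00305).

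Of 6 tested inhibitors of the receptors, 0 were higher and 4 lower in OPC than in postnatal NSC, 0 higher and 3 lower in adult than in postnatal NSC, and 1 higher and 2 lower in OPC than in adult NSC by edgeR. DESeq2 gave the same counts, with 0 higher than in postnatal NSC also at an unadjusted p under 0.05. Without both libraries low in G1/S genes, edgeR called 5 lower in OPC than in postnatal NSC and 3 lower in adult than in postnatal NSC, while in OPC against adult NSC it called 1 higher and 0 lower (2 lower at an unadjusted p under 0.05), so both lower calls were lost. Grb10, an adaptor that restrains both receptors, had 34.9, 48.9, 40.3 and 39.1 CPM in postnatal OPC, 28.5, 22.3, 22.9 and 25.3 CPM in adult NSC and 67.4, 58.6, 51.1 and 70.9 CPM in postnatal NSC. No group overlapped another. Its log2 fold change was -0.60 ± 0.13 in OPC against postnatal NSC (edgeR adjusted p = 0.00278), -1.32 ± 0.13 in adult against postnatal NSC (edgeR adjusted p = 2.02e-05) and 0.72 ± 0.13 in OPC against adult NSC (edgeR adjusted p = 0.000758). Socs3, which is induced by cytokines and can block insulin signalling, had 11.5, 10.9, 11.8 and 9.42 CPM in postnatal OPC, 6.06, 7.12, 5.40 and 6.85 CPM in adult NSC and 10.2, 129.5, 177.8 and 34.7 CPM in postnatal NSC. Its high values came from 3 of the 4 postnatal NSC libraries, and postnatal NSC 1 lay among the OPC libraries. It was lower in OPC than in postnatal NSC (-3.02 ± 0.64, edgeR adjusted p = 0.00245), but -2.42 without postnatal NSC 3 (edgeR adjusted p = 0.00520) and -1.44 with the Ddx3y covariate, where the call was lost (edgeR adjusted p = 0.0924). In adult against postnatal NSC it was -3.79 ± 0.68 (edgeR adjusted p = 0.000713), -3.20 without postnatal NSC 3 (edgeR adjusted p = 0.00146) and -2.58 with the covariate (edgeR adjusted p = 0.00527).

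Of 14 tested genes of PI3K and AKT, 7 were higher and 4 lower in OPC than in postnatal NSC, 4 higher and 3 lower in adult than in postnatal NSC, and 4 higher and 4 lower in OPC than in adult NSC. These counts were 8 and 4, 4 and 3, and 5 and 5 without both libraries low in G1/S genes. Pik3r1, the regulatory subunit of PI3K that docks on IRS proteins, had 571.8, 550.8, 541.7 and 554.1 CPM in postnatal OPC, 260.9, 261.2, 254.8 and 247.2 CPM in adult NSC and 270.9, 222.1, 224.8 and 293.2 CPM in postnatal NSC. OPC stood above every NSC library. The difference was 1.13 ± 0.09 against postnatal NSC (edgeR adjusted p = 4.33e-06) and 1.12 ± 0.09 against adult NSC (edgeR adjusted p = 1.61e-06). The catalytic subunit Pik3cb was also higher in OPC, by 1.10 ± 0.11 against postnatal NSC (edgeR adjusted p = 1.52e-05) and by 0.84 ± 0.11 against adult NSC (edgeR adjusted p = 5.6e-05). Inppl1, a lipid phosphatase, was lower in adult than in postnatal NSC (-0.85 ± 0.08, edgeR adjusted p = 7.91e-06).

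Of 12 mTOR genes, 1 was higher and 4 lower in OPC than in postnatal NSC, 1 higher and 2 lower in adult than in postnatal NSC, and 3 higher and 5 lower in OPC than in adult NSC. These counts were 2 and 5, 3 and 3, and 4 and 6 without both libraries low in G1/S genes. Rps6kb1, the S6 kinase, averaged 99.3 CPM in postnatal OPC, 86.3 CPM in adult NSC and 57.3 CPM in postnatal NSC, and was higher in OPC than in postnatal NSC (0.79 ± 0.07, edgeR adjusted p = 8.66e-06). Eif4ebp1, the translation repressor that mTOR switches off, had 5.57, 2.69, 6.46 and 6.63 CPM in postnatal OPC, 28.6, 32.3, 31.5 and 27.9 CPM in adult NSC and 24.6, 15, 5.13 and 26.2 CPM in postnatal NSC. It was lower in OPC than in adult NSC (-2.50 ± 0.43, edgeR adjusted p = 0.000433) and than in postnatal NSC (-1.74 ± 0.42, edgeR adjusted p = 0.00497), and postnatal NSC 3, at 5.13 CPM, lay among the OPC libraries. Of 6 FOXO and GSK3 genes, 2 were lower in OPC than in postnatal NSC, 1 was lower in adult than in postnatal NSC, and 0 were called in OPC against adult NSC by edgeR or DESeq2, with 1 at an unadjusted p under 0.05. Without both libraries low in G1/S genes, edgeR called 1 higher and 2 lower in OPC than in adult NSC, 1 higher and 3 lower in OPC than in postnatal NSC, and 1 lower in adult than in postnatal NSC. Stc1, Rps6kb1, Inppl1 and Gab1 overlap a gene of the other strand and are uncertain to that extent.

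**Figure D5:**
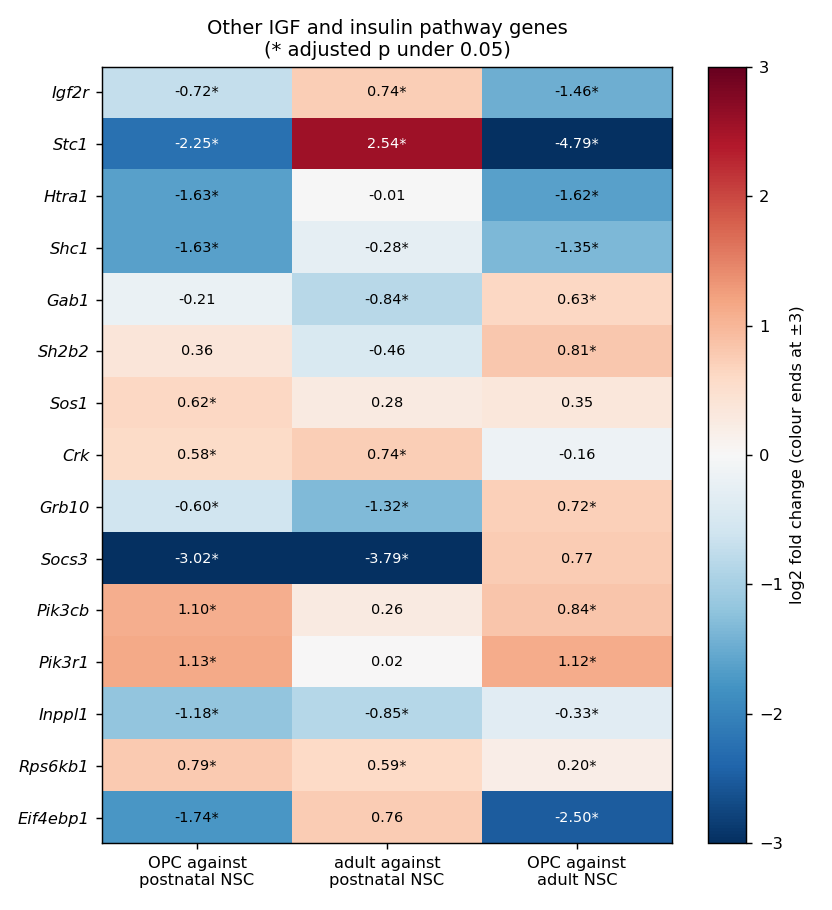
Log2 fold changes of 15 other pathway genes (rows) in OPC against postnatal NSC, adult against postnatal NSC and OPC against adult NSC (columns), red for higher and blue for lower, with a star at an edgeR adjusted p under 0.05. Pik3r1 and Pik3cb are red in both OPC columns, and Socs3 is lowest against postnatal NSC at -3.02 and -3.79.

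For members whose group means spanned at least 1 on the log2 scale, the genes with the closest profile over the 12 libraries were found by the root-mean-square difference of centred log2 CPM. Pseudogenes and genes without a descriptive symbol were passed over. For Irs1 the closest were Dyrk3 (0.102), Polr3g (0.139) and Gtse1 (0.142). For Irs2 they were Dnaja4 (0.297), Rfx2 (0.341) and Ccdc136 (0.342). Igfbp2 ran closest to Slc1a5 (0.208), Ldha (0.215) and Cdc42ep1 (0.270). The first of these averaged 5.31 CPM in postnatal OPC, 16.4 CPM in adult NSC and 15.9 CPM in postnatal NSC. Igfbp3 ran closest to the cyclin gene Ccnd1 (0.309), which averaged 480.0 CPM in postnatal OPC, 2241.6 CPM in adult NSC and 683.4 CPM in postnatal NSC, then to Akap12 (0.419) and Ddit4l (0.449). Igfbp4 ran closest to Camk2b (0.441), Rflna (0.480) and Fzd10 (0.484), and Igfbp5 to Pld2 (0.367), Celsr1 (0.379) and Man1c1 (0.389). The nearest genes to Igf1 were Loxl2 (0.431), Ifitm3 (0.477) and Slc5a3 (0.509), and those to Igfbp7 Angpt1 (0.484), Gpc4 (0.508) and Pcdhac2 (0.510). These differences are not scaled to the span of each member's group means and are not ranked between members. That span was 1.93 for Igfbp2, 3.74 for Igf1 and 1.19 for Igfbp7 on the log2 scale. Igf1 and Igfbp7 had low counts.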

How the data were processed

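RNA of 12 cultures was sequenced from poly(A) libraries made with a stranded kit, per the labels' protocols. The authors deposited read counts per gene, not normalized. FastQC, STAR and featureCounts 1.22.2 with the GRCm38 build were used, per the submitters' processing notes; the annotation, the strand setting and the treatment of reads that map to several genes are not given in the sources used here, so genes that overlap another are uncertain. Of 55401 identifiers, 55141 were found in GENCODE M21, which gave symbols, coordinates and exon lengths.

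Groups came from the sample titles. Genes were filtered with filterByExpr (minimum count 10, minimum total 15), which left 16135, scaled by TMM and fitted with edgeR 4.0.16 (quasi-likelihood) in R 4.3.3, with 1 term per group over all 12 libraries (common dispersion 0.0513). Tests were two-sided, with Benjamini-Hochberg adjustment over all genes tested within a comparison; a gene is called where its adjusted p is below 0.05. CPM are counts scaled by TMM library sizes. Log2 CPM used a prior count of 2. The fit was tested on simulated counts. No gene set test was run.

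The rule for genes named beside the members took, in each comparison, the 4 called pathway genes with the largest rise and the 4 with the largest fall among those whose higher group averaged 5 CPM or more, plus Igf2, Igf2r, Grb10 and Pappa whatever their result. A gene that this rule takes is not reported here. Likeness of profile was ranked among genes with a mean of at least 5 CPM, without pseudogenes and genes that lack a descriptive symbol. The members and lists were chosen with earlier results of these data known. Alternatives were DESeq2 size factors, upper-quartile scaling, no filter on low counts, DESeq2 1.42.0, only the 2 groups compared, a replicate block, thinning to 16756231 counts, leaving out each library, leaving out both libraries low in G1/S genes, and the level of Ddx3y as a covariate. No library was a duplicate of another in its group (lowest chi-square per degree of freedom 3.86). Promoters are RefSeq sequences on GRCm38.p6.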

Additional observations from a re-analysis of the deposited data

Results flagged for a closer look

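Among 30 sets of 4 libraries (10 genes in 3 groups), 1 held a library far from the others. Igfbp5 had 40.6 CPM in postnatal OPC 1, against 31.6, 32.1 and 31.8 CPM in the other 3 OPC libraries, a gap to the nearest of 0.944 of the whole range, above Dixon's critical value for 4 values. Chance gives such a gap in about 1 in 20 sets. Without postnatal OPC 1 the difference between OPC and postnatal NSC still passed, as in all alternatives run.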

How the results depend on the processing

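The number of members called in OPC against postnatal NSC was 3 (0 higher and 3 lower) when only those groups were fitted, where 9 were tested, against 5 in the fit of all groups. Over all genes, 5699 of 16590 were called in the fit of those groups, against 7276 of 16135. With 1 library left out, 4 to 7 members were called, beside 6363 to 7938 genes in all. In OPC against adult NSC 5 to 6 members were called, beside 7212 to 9028 genes in all. In adult against postnatal NSC 3 to 7 members were called, the lowest without adult NSC 2 and without adult NSC 3, beside 7417 to 9443 genes in all. Signs turned for differences that had not passed. For Igfbp7 in OPC against postnatal NSC the value was 0.28 without both libraries low in G1/S genes, 0.45 with the Ddx3y covariate and -0.58 to 0.16 without 1 library. For Igfbp2 in adult against postnatal NSC it was -0.17 without both and -0.16 to 0.21 without 1 library. For Igfbp4 there it was -0.15 without both and -0.14 to 0.74 without 1 library. For Insr in OPC against adult NSC it was -0.0 with the covariate and -0.01 to 0.04 without 1 library. The cause was not tested. Over the members' alternatives, 555 values kept their call and direction, 36 lost a call, 27 gained one and 10 turned. Igfbp5 against postnatal NSC kept its call in both comparisons throughout. Replicate numbers were not found to pair the libraries (correlations of same-numbered libraries from -0.363 to 0.325). With the replicate block 4, 4 and 6 members were called in OPC against postnatal NSC, adult against postnatal NSC and OPC against adult NSC, and 6811, 8043 and 7818 genes in all. Under the block, Insr in OPC against postnatal NSC (0.19, edgeR adjusted p = 0.0749) and Irs2 in adult against postnatal NSC (-0.85, edgeR adjusted p = 0.0504) did not pass. Depth limits Igf1 and Igfbp7, which had 11 and 44 counts over the 4 OPC libraries.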
